A study of Mus musculus with 4 samples.

Results

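The genes Skap1, Themis, Cd3e, Cd8a, Cd247 and Nkg7, which mark T cells or carry the T cell receptor signal, were followed through nuclei of mouse hippocampus. They are 6 of the 55403 features counted in 4 droplet libraries. They were chosen by name, with earlier results of the same libraries known. A nucleus was set apart when at least 3 of the 6 had at least 1 unique molecular identifier (UMI, 1 counted RNA molecule). This held for 32 of 29616 kept nuclei, and the count per library therefore describes the choice and carries no test.

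T cells read antigen through a receptor of α and β chains that has no signalling tail of its own. The CD3 chains, among them Cd3e, and the ζ chain Cd247 carry the activation motifs, and the co-receptor Cd8a binds class I MHC and brings the kinase Lck to the receptor. Downstream, Themis tunes the signal during T cell selection, and the adaptor Skap1 links the receptor to integrin adhesion. Nkg7 is a granule protein of cytotoxic T and natural killer (NK) cells. Healthy brain tissue holds few T cells, and more of them have been described in mice with tau pathology.

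The study profiled single nuclei from frozen, pooled hippocampus of 3 genotypes. PS19 mice (B6;C3 background) carry human MAPT with the P301S mutation, as 1N4R tau, under the Prnp promoter. TG_PS19 mice carry this transgene and, in addition, SORLA overexpressed from the Rosa26 locus through a CMV/β-actin promoter element, which is not specific to a cell type. WT mice were the reference, and littermates were used. PS19 was profiled in 2 libraries, and WT and TG_PS19 in 1 each. The title calls the mice aged, with no exact age in the sources used here, and the labels leave unsaid whether different animals went into each PS19 library. All spread given below is thus between these samples and may be technical.

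The WT, PS19 replicate 1, PS19 replicate 2 and TG_PS19 libraries kept 11458, 4467, 4728 and 8963 nuclei, with 41386302, 18801176, 24489455 and 33952431 UMIs. Their median depths were 2531, 2955, 3622 and 2532 UMIs per nucleus. Human MAPT had 0 UMIs in WT and 17.8, 18.4 and 12.99 CPM (UMIs scaled to a common total, the field's usual counts-per-megacount unit) in PS19 replicate 1, PS19 replicate 2 and TG_PS19. Human SORL1 was at 65.6 CPM in TG_PS19 and at 0.372 CPM or less elsewhere. Xist, the RNA of the inactive X chromosome, was found in 55.1% of TG_PS19 nuclei and in 0.916% to 1.46% of nuclei of the other libraries, and a UMI of a Y-linked gene in 28.9% against 69.1% to 76.7%. TG_PS19 thus also differed from the other libraries in the sex of its animals. Between 5 and 32 barcodes were shared by any pair of libraries, and 0 of the 32 chosen nuclei carried a shared one. A cluster of 675 nuclei, of which 643 came from TG_PS19, and a cluster of 279 nuclei, all from WT, were left unnamed and held 0 of the 32.

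RefSeq (GRCm38.p6) gave promoter windows, 250 bases before to 50 after the start, for 5 of the 6 members. The windows of 3 members are shown because their genes behaved differently in these nuclei: most UMIs of Cd3e and Cd8a lay in T cell nuclei, while most UMIs of Themis did not. Capitals mark matches, on either strand, to GGAAG, the core of ETS factor motifs, which 71.4% of 32851 windows of this length hold. The RUNX core TGTGGT was searched in the same way, is held by 16.8% of windows, and had no match in these 3. The windows lie at chr9:45009562-45009861 (minus strand) for Cd3e, chr6:71373177-71373476 (plus strand) for Cd8a and chr10:28668110-28668409 (plus strand) for Themis.
Cd3e: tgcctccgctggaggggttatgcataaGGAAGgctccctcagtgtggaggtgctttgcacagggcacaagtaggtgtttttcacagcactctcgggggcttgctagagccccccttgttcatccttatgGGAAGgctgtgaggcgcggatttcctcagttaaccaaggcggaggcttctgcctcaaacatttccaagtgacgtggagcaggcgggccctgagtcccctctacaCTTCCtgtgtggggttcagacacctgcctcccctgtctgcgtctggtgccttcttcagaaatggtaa
Cd8a: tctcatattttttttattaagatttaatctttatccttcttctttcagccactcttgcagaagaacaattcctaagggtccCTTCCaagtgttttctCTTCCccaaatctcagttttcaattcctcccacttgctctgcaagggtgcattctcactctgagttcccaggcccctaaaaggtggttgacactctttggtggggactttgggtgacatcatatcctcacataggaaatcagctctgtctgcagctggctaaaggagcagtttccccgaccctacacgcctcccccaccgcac
Themis: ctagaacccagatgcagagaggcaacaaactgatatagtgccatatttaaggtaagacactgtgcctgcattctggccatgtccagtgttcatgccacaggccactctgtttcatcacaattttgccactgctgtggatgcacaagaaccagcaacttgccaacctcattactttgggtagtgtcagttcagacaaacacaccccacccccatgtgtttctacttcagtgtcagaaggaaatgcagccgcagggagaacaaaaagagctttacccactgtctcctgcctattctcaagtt
Cd3e held 3 matches to GGAAG, Cd8a held 2 and this window of Themis held 0. A second Themis window held 1. Of the other windows not printed, Nkg7 held 3 matches to GGAAG and 1 to TGTGGT, and Cd247 held 2 and 0. A match is a run of letters only and says nothing of a bound factor.

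The 32 nuclei were 6 of 11458 in WT, 10 of 4467 in PS19 replicate 1, 13 of 4728 in PS19 replicate 2 and 3 of 8963 in TG_PS19. The WT share was 0.0524% (exact Clopper-Pearson 95% interval 0.0192 to 0.114). PS19 replicate 1 was at 0.224% (0.107 to 0.411) and PS19 replicate 2 at 0.275% (0.146 to 0.470). The TG_PS19 share was 0.0335% (0.00690 to 0.0978). Both PS19 libraries were thus higher than the lone WT and TG_PS19 libraries, with a PS19 mean of 0.249% ± 0.0361 (SD, n = 2). The counting intervals of WT and PS19 replicate 1 still overlapped. An exact permutation of 1 library against 2 cannot give a p under 0.333, so no design of this size could pass a threshold.

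Per 1000 microglia-like nuclei, the counts were 10.3 in WT, 39.2 and 45.9 in PS19 and 7.37 in TG_PS19. The order of the libraries was therefore not changed by taking microglia as the base. A rule that uses none of the 6 members, at least 3 of 18 other T cell genes, found 8, 17, 17 and 4 nuclei in WT, PS19 replicate 1, PS19 replicate 2 and TG_PS19. Of the 32 chosen nuclei, 27 met that rule too, which is 84.4% of the 32 and 58.7% of the 46 nuclei that met the second rule. The T cell-like cluster, whose 10 naming markers include the 6 members, held 9, 17, 15 and 5 nuclei and 30 of the 32. Of the 46 nuclei of the second rule, 41 lay in that cluster. Among the cluster's 16 nuclei outside the 32, 7 held Ncr1, an NK cell receptor gene. Neither count can thus be read as T cells alone.

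**Figure D1:**
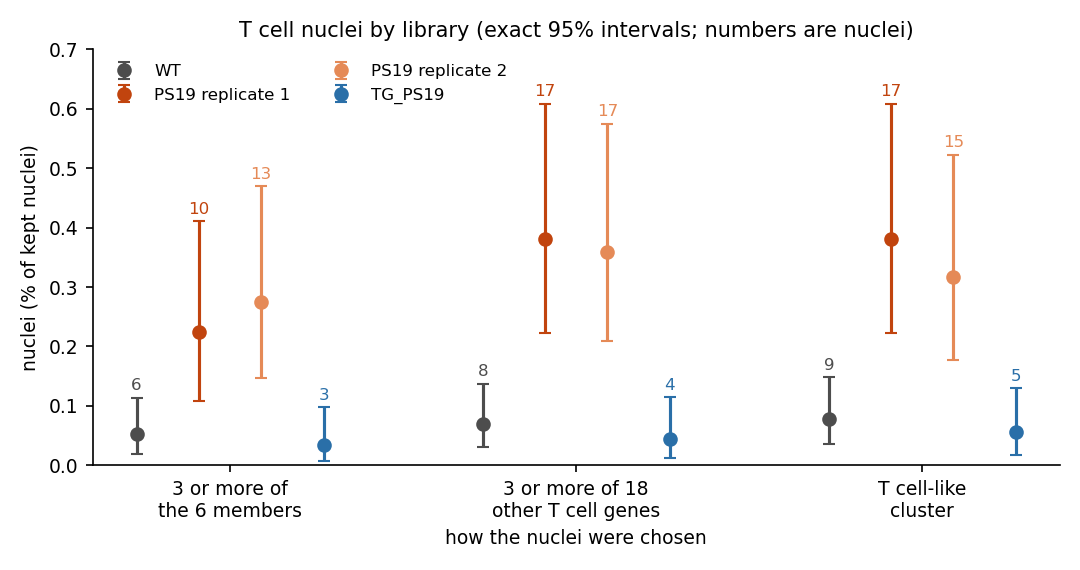
The vertical axis gives nuclei as a percent of kept nuclei, for 3 ways of choosing T cell-like nuclei, some with NK cell genes, on the horizontal axis. Points are single libraries, bars are exact 95% binomial intervals for counting error, and the printed numbers are nuclei; under each choice the PS19 points, from 0.224% to 0.381%, lie above WT and TG_PS19, which reach at most 0.0785%.

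Depth moved with these counts. The chosen nuclei had median depths of 858 UMIs in WT, 1592 and 1420 in PS19 and 1272 in TG_PS19, and 4 of the 6 WT nuclei were under 1000 UMIs. After every nucleus was thinned to 1000 UMIs, 2, 6, 12 and 1 nuclei met the rule in WT, PS19 replicate 1, PS19 replicate 2 and TG_PS19. Thinned to 600 UMIs, which lost none of the 32, the counts were 4, 5, 7 and 1. The shares were then 0.0349% (exact interval 0.00952 to 0.0894) in WT against 0.112% (0.0364 to 0.261) and 0.148% (0.0596 to 0.305) in PS19. The WT interval overlapped both PS19 intervals at that depth. By the rule on other T cell genes, also at 600 UMIs, it did not: WT was at 0.0175% (0.00212 to 0.0631), PS19 replicate 1 at 0.224% (0.107 to 0.412) and PS19 replicate 2 at 0.169% (0.0731 to 0.333). TG_PS19 at 600 UMIs was at 0.0113% (0.000286 to 0.0630) by the members, an interval that overlapped both PS19 intervals. By the other T cell genes TG_PS19 was at 0.0339% (0.00699 to 0.0991), which overlapped PS19 replicate 2 but not PS19 replicate 1.

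Of the 32 nuclei, 3 had over 5000 UMIs, with 10702, 12968 and 8218 UMIs, and all 3 were from PS19. Together they carried 57 UMIs of CA1 pyramidal neuron markers and 136 of choroid plexus markers beside 56 of T cell markers. The other 29 nuclei carried 472 UMIs of the T cell markers, 8 of the CA1 markers and 4 of the choroid plexus markers. Without these 3, 9 and 11 nuclei remained in the PS19 libraries, or 0.201% and 0.233% of kept nuclei. Their part in the result was not tested; the PS19 libraries were still the highest.

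Markers of several other cell types were also present. The 10 T cell markers summed to 12099, 6641, 7265 and 8837 CPM in the chosen nuclei of WT, PS19 replicate 1, PS19 replicate 2 and TG_PS19. These markers were at 1756 CPM in the 3 nuclei over 5000 UMIs and at 12419 CPM in the other 29, and the median nucleus of each library was at 12634, 10362, 13600 and 9434 CPM. The CA1 list was at 588 CPM in PS19 replicate 1 and 1398 CPM in PS19 replicate 2, against 732 to 917 CPM in its own class. The choroid plexus list was at 336 and 3619 CPM, against 22608 to 29773 CPM in its own class, and both lists were at 0 in WT and TG_PS19. The 8 microglial markers summed to 1308, 420, 521 and 855 CPM, against 10032 to 13033 CPM in microglia-like nuclei, and 21 of the 32 nuclei held at least 1 such UMI. Csf1r, P2ry12 and Tmem119, which define microglia, and all 6 border macrophage markers were at 0 UMIs in the 32. The neutrophil or monocyte list summed to 654, 336, 302 and 0 CPM, on 23 UMIs in 15 nuclei, with S100a8, S100a9 and Retnlg at 0. The 6 oligodendrocyte markers summed to 2780, 883, 576 and 1425 CPM, against 18488 to 19402 CPM in oligodendrocyte-like nuclei. The dentate granule neuron list summed to 2289, 1009, 1069 and 1710 CPM, against 1813 to 1843 CPM in its own class, with Prox1, Calb1 and Dsp at 0. In WT and TG_PS19 its 14 and 6 UMIs all came from 1 listed gene, Dock10. What these markers add to the counts was not tested.

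On GRCm38 the members, all protein-coding, lie on separate chromosomes: Skap1 at chr11:96464593-96759130, Themis at chr10:28668360-28883818, Cd247 at chr1:165788681-165877277, Cd3e at chr9:44998740-45009627, Cd8a at chr6:71373427-71379173 and Nkg7 at chr7:43437073-43438249. Skap1 had the widest detection among the members, with at least 1 UMI in 32 of 32 nuclei. Themis was found in 28, Cd247 in 23, Cd3e in 16, Cd8a in 14 and Nkg7 in 8. The same order holds for the span of the genes, which is 294.5 kb for Skap1, 215.5 kb for Themis, 88.6 kb for Cd247, 10.9 kb for Cd3e, 5.75 kb for Cd8a and 1.18 kb for Nkg7. Nuclear RNA is rich in unspliced transcripts, so that UMIs were not compared between genes as levels; what gene span adds to detection was not tested.

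Skap1 gave 37 UMIs in the 6 WT nuclei, 64 and 99 in the 10 and 13 PS19 nuclei and 8 in the 3 TG_PS19 nuclei. Themis gave 13, 21, 51 and 8 UMIs, and Cd247 gave 9, 10, 21 and 3. These 3 members were found in T cell nuclei of all 4 libraries. Cd3e gave 1, 9, 12 and 0 UMIs, so that 21 of its 22 UMIs in these nuclei were from PS19, which gave 23 of the 32 nuclei. Cd8a, the co-receptor chain, gave 4, 6, 11 and 1 UMIs, and Nkg7 gave 1, 5, 2 and 0. Cd3e was found in 7 of 10 and 8 of 13 PS19 nuclei, in 1 of 6 WT nuclei and in 0 of 3 TG_PS19 nuclei. The rule used Cd3e, and median depth was 858 UMIs in WT, 1592 and 1420 in PS19 and 1272 in TG_PS19. These counts are thus a description.

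**Figure D2:**
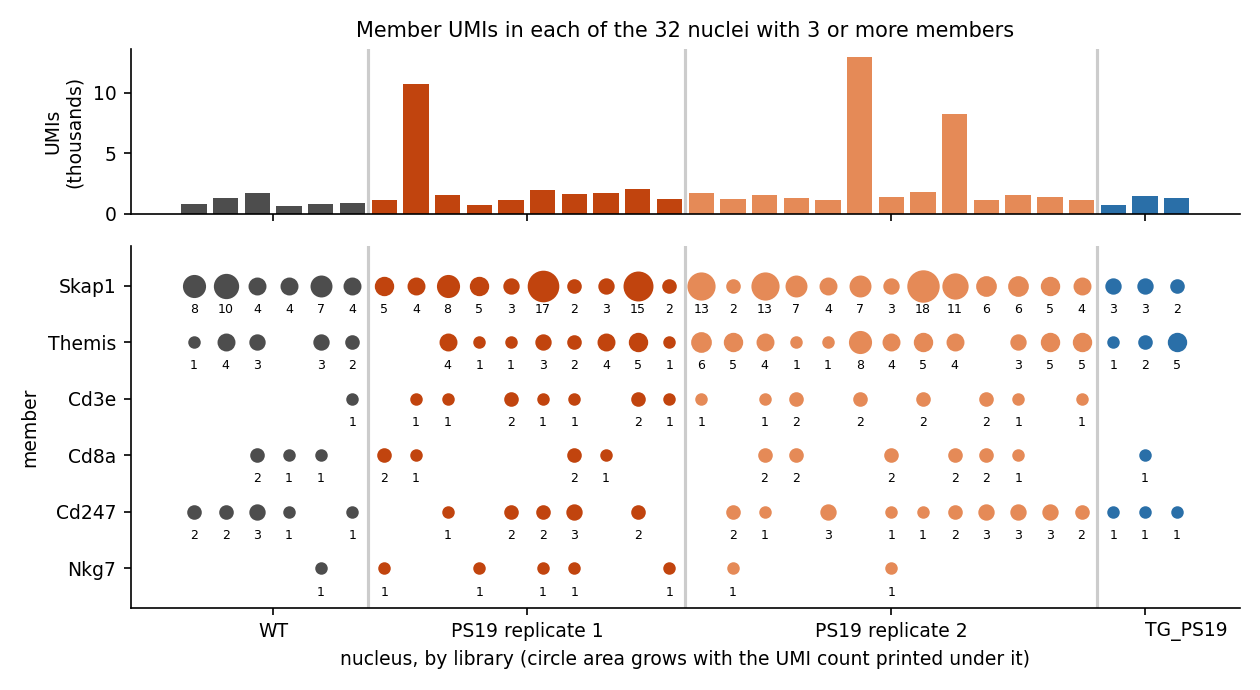
Each column is 1 of the 32 nuclei, in 4 blocks by library; the upper bars give its depth in UMIs (1 unit is 1000). The lower circles give the UMIs of each member, printed below each circle: Skap1 is filled in all 32 columns, Nkg7 in 8, and the 3 tall bars are the nuclei over 5000 UMIs.

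On the edge of the rule, 13 nuclei had exactly 3 members and 39 had exactly 2. Of the 13, 12 lay in the T cell-like cluster at a median depth of 1272 UMIs, with a median of 4 of the 18 other T cell genes. Of the 39 just outside, 10 lay in that cluster, the median depth was 9237 UMIs and the median of other T cell genes was 0. Skap1 and Cd247 made up most of these outside pairs, in 32 and 25 of the 39 nuclei.

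Other genes of the T cell receptor pathway were read in the 32 nuclei from lists assembled with earlier results known. Of 13 genes for receptor chains, co-receptors and co-stimulation, 12 had at least 1 UMI; the exception was Cd4, the co-receptor for class II MHC. The β constant genes Trbc2 and Trbc1 were in 14 and 8 nuclei, the CD3 chains Cd3g and Cd3d in 12 and 7, and the α constant gene Trac in 2. Of 20 signalling genes, 19 were detected, among them the adaptor Grap2 in 26 nuclei and the Src kinase Lck in 17. Ptprc, which encodes the leukocyte phosphatase CD45, was in all 32 and also in 64.3% of microglia-like nuclei, where Grap2 and Lck were in at most 0.131%. In PS19, the median ratio of level in these nuclei to level in all other nuclei, with 10 CPM added to both, was 12.5 for the receptor list and 13.8 for the signalling list, beside 0.975 over 34701 genes. The members chose these nuclei, and these ratios are a description.

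Cd8a or Cd8b1, the 2 chains of CD8, was found in 20 of the 32 nuclei, and Cd4 in 0 of 32, which allows a share of up to 9.38% of nuclei with a UMI; this limit holds for each gene given at 0 in the 32. Since Cd8a is a member and Cd4 is not, the rule itself favours nuclei with CD8. Cd8b1, which the rule did not use, was in 11 of the 32. By library, a CD8 chain was seen in 3 of 6 nuclei (WT), 5 of 10 (PS19 replicate 1), 11 of 13 (PS19 replicate 2) and 1 of 3 (TG_PS19). Cd8b1 (chr6:71322788-71337494) and Cd8a (chr6:71373427-71379173) are neighbours. Between them on the strand opposite to both lies the lincRNA Gm44175 (chr6:71354351-71360829), one of the 20 genes that led these nuclei in PS19. It was found in 11 nuclei, 3 in PS19 replicate 1 and 8 in PS19 replicate 2, and 10 of these 11 also held a CD8 chain. Cd8b1, the chain outside the rule, was in 7 of these 11. A CD8 chain was seen in 10 of the 21 nuclei without Gm44175. Of 4 γδ T cell genes in the files, the constant genes Trgc2 and Trgc4 were in 2 nuclei each, and Trdc and Trgc1 were at 0 UMIs. The regulatory T cell factor Foxp3 was at 0 UMIs in all 32, and 0 of 9 B cell genes had a UMI there.

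Of the 15 cytotoxic effector genes, 8 were detected. The protease Ctsw was in 16 nuclei, the chemokine Ccl5 in 12 and the activating receptor Klrk1 in 11. Gzma, Gzmb and Ifng, which encode granzymes and interferon-γ, were at 0 UMIs in the 32 nuclei, and perforin (Prf1) was in 1. Among trafficking genes, the integrin chain Itga4 was in 20 nuclei and the chemokine receptor Cxcr6 in 17, and 12 of the 13 listed genes present in the files were detected. Checkpoint receptors gave 2 UMIs in all, 1 each in 2 nuclei of PS19 replicate 2. Variable segments of the receptor were rare: 8 pairs of a segment and a nucleus were seen, among them Trgv2 in 3 nuclei, and 0 nuclei held 2 segments of the same chain. The β segments seen were Trbv26 in PS19 replicate 1 and Trbv1 in PS19 replicate 2, so that no clone shared by nuclei could be read from these counts.

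The members aside, the 20 genes with the largest ratio in PS19, among 786 detected in at least 25% of the chosen nuclei of each PS19 library, were led by Gm2682, a lincRNA. Its level was 2771 CPM in these nuclei and 1.92 CPM in all others, and it was in 30 of 32 nuclei. Ms4a4b followed at 1244 against 1.55 CPM, a membrane protein of T cells, and Grap2 at 929 against 0.902 CPM. The list also held Cd226, an activating receptor, at 863 against 7.80 CPM, and, among others, Klrk1, Gimap3, Gimap4, Ikzf3, Trbc2, Ptpn22, Ms4a6b, Ms4a6c, Arhgap15, Rinl, Atp8b4, Gm37004, Ptprc and Mir142hg. Mir142hg and Ptprc were also found in 58.1% and 64.3% of microglia-like nuclei. Gm2682 was in 5 of 6 WT nuclei and 3 of 3 TG_PS19 nuclei, libraries that the ranking did not use, and Ms4a4b was in 6 of 6 and 1 of 3.

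Across 16 nuclear classes the genes closest to the mean profile of the 6 members, by Pearson's r, were Gm48719 (0.996), Gm3940 (0.991), 4732465J04Rik (0.991), Trbc2 (0.990), Cd3g (0.989), Grap2 (0.988), Cd28 (0.988), Runx3 (0.988), Cd3d (0.987) and Lat (0.987). The classes share their libraries, and each r rests on the T cell nuclei, the class in which the members are high. Gm48719 and Gm3940 had 22 and 29 UMIs in all kept nuclei. Of the members themselves, Cd3e was closest to the mean at 0.989 and Cd8a farthest at 0.825.

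The T cell-like cluster held 16 nuclei that did not reach 3 members. They differed from the 32 in several genes that the rule did not use. Ncr1, the NK cell receptor NKp46, was in 7 of these 16 nuclei with 37 of its 42 UMIs in the series, and in 0 of the 32. Klre1 was in 7 of 16 against 1 of 32, and Klrb1c, which encodes NK1.1, in 5 of 16 against 0 of 32. Other listed NK cell genes were rarer: Klri2 was in 3 of 16 and Klra4 in 1 of 16, each against 0 of 32. Klra8 and Gzmc had 0 UMIs in both sets. Klrk1 was in 12 of 16 against 11 of 32, and the kinase Txk in 11 of 16 against 8 of 32.

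Members and CD3 genes also split these sets, which the rule itself favours. Skap1 was in 16 of 16, Nkg7 and Cd247 in 4 each, Themis and Cd3e in 1 each and Cd8a in 0. Trbc1 was in 9 of 16 against 8 of 32, and Trbc2 in 2 of 16 against 14 of 32. Of the 7 nuclei with Ncr1, 5 also held a UMI of a CD3 or receptor constant gene. The 7 were spread over all libraries, 1 in WT, 3 and 2 in PS19 and 1 in TG_PS19, and the 2 sets had median depths of 1495 and 1330.5 UMIs. Both sets were chosen from the same clustered counts, and no test is given between them.

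**Figure D3:**
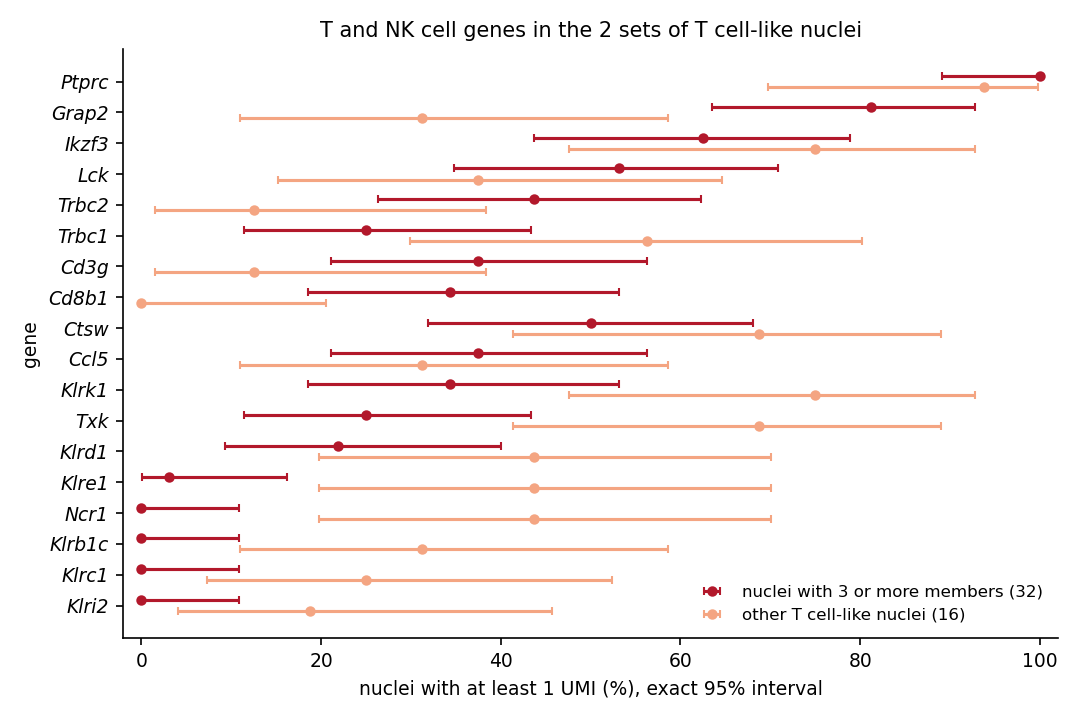
The horizontal axis gives the percent of nuclei with at least 1 UMI of each gene on the vertical axis, with exact 95% intervals, for the 32 nuclei with 3 or more members (dark) and the 16 other T cell-like nuclei (light). Cd8b1, Trbc2 and Grap2 sit further right in the 32, and Ncr1, Klrb1c and Klre1 sit at 0 to 3.12% in the 32 and at 31.2% to 43.8% in the 16.

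Over whole libraries the members fell into 2 kinds. Of the 35 UMIs of Cd3e in the series, 22 lay in the 32 nuclei and 2 more in the other T cell-like nuclei. Cd8a had 22 of 35 UMIs in the 32 nuclei, and Nkg7 had 8 of 18 there and 6 in the other T cell-like nuclei. Skap1 had 208 of 1041 UMIs in the 32 nuclei, Themis 93 of 850 and Cd247 43 of 638, so that most UMIs of these 3 came from other nuclei.

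In WT, PS19 replicate 1, PS19 replicate 2 and TG_PS19, Cd3e was at 0.0725, 0.691, 0.653 and 0.0884 CPM, on 3, 13, 16 and 3 UMIs. Cd8a was at 0.169, 0.532, 0.613 and 0.0884 CPM in the same order, on 7, 10, 15 and 3 UMIs. For both genes the 2 PS19 libraries lay above the other libraries. For Cd8a, however, the counting interval of WT (0.0680 to 0.348) overlapped both PS19 intervals (0.255 to 0.978 and 0.343 to 1.01). That of TG_PS19 (0.0182 to 0.258) overlapped PS19 replicate 1. Nkg7 was at 0.121, 0.532, 0.123 and 0 CPM, so that PS19 replicate 2 was level with WT on 3 and 5 UMIs. In sums over a library, fewer cells of a type and less RNA per cell cannot be told apart.

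Skap1 was at 7.35, 10.5, 11.9 and 7.30 CPM in the same order; without the 32 nuclei it was at 6.45, 7.14, 7.85 and 7.07 CPM. Themis was at 6.28, 7.82, 6.78 and 8.16 CPM in all nuclei, the highest library being TG_PS19. Cd247 ran the other way from Cd3e, at 5.87, 3.46, 3.96 and 6.86 CPM, with the PS19 libraries lowest. Summed over the 6 members the levels were 19.9, 23.6, 24.0 and 22.5 CPM, and without the 32 nuclei 18.3, 17.5, 16.03 and 21.9 CPM. The 2 PS19 libraries thus went from the highest sums to the lowest when the 32 nuclei were left out. The rule chose these nuclei for their member UMIs, so the sums must fall most where such nuclei are most frequent. With all nuclei, the counting interval of TG_PS19 (20.9 to 24.2) overlapped those of PS19 (21.4 to 25.9 and 22.1 to 26.0). Without the 32, those of WT (17.01 to 19.64) and PS19 replicate 1 (15.6 to 19.5) overlapped.

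**Figure D4:**
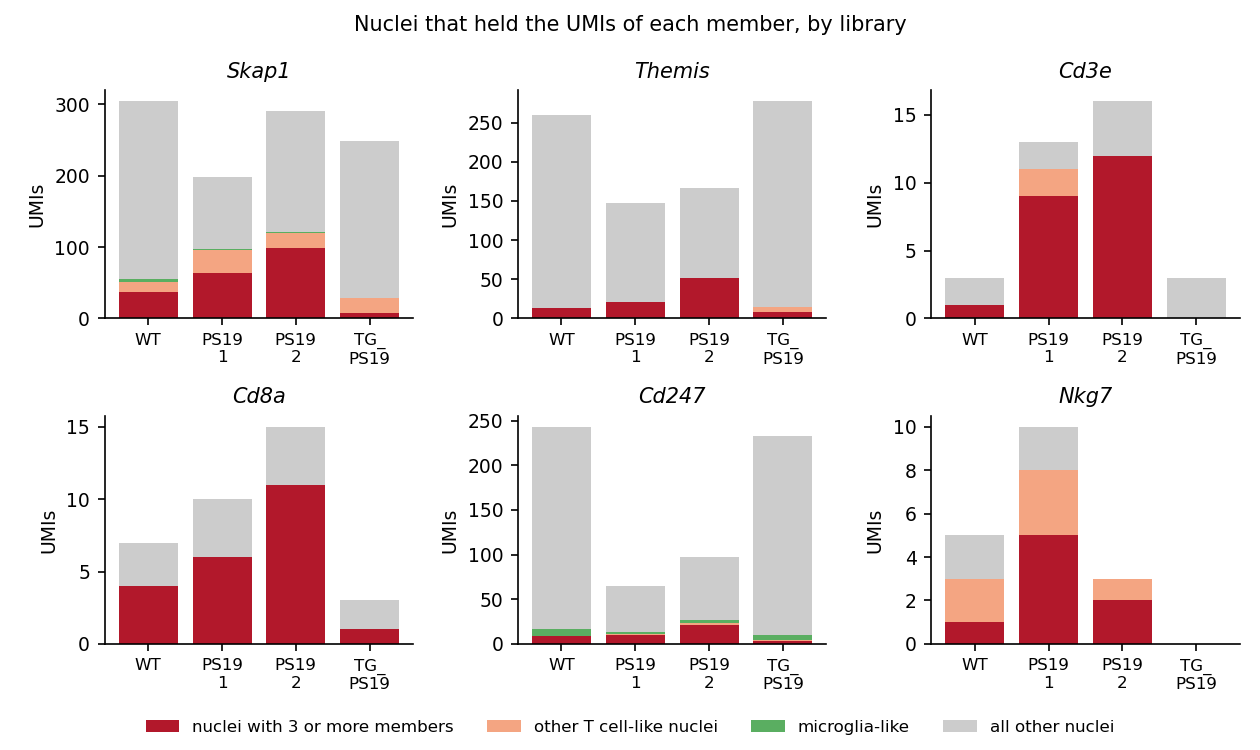
Each panel is 1 member, with UMIs on the vertical axis and the 4 libraries on the horizontal axis, and colours give the nuclei that held the UMIs. Red, for the 32 chosen nuclei, takes 60.0% to 75.0% of the PS19 bars of Cd3e and Cd8a, while grey, for nuclei outside the T cell-like and microglia-like ones, takes most of every bar of Skap1, Themis and Cd247.

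Outside T cell nuclei, Skap1 was highest in a class of CA3, subicular and other excitatory neuron-like nuclei. WT reached 90.5 CPM there (exact Poisson 95% interval 68.2 to 118), PS19 replicate 1 73.0 (45.8 to 111), PS19 replicate 2 107 (79.7 to 142) and TG_PS19 62.3 (48.8 to 78.3). The intervals of PS19 replicate 2 and TG_PS19 did not overlap, those of every other pair did, and the class was too small in PS19, with 25 and 36 nuclei, to be tested. Thinned to 1000 UMIs, 6.40% of these nuclei held Skap1, against 1.49% of inhibitory, 0.984% of CA1 and 0.661% of dentate granule neuron-like nuclei and 0.204% of microglia-like nuclei. Unthinned, the shares were 31.2% in this class at a median depth of 9329 UMIs and 0.393% in microglia-like nuclei at 1832 UMIs. Skap1 was tested in 4 classes and called 0 times over the 3 comparisons by edgeR, without the 32 nuclei (lowest adjusted p 0.619), 0 times at an unadjusted p under 0.05 and 0 times by DESeq2, where edgeR called from 0.337% to 9.5% of all genes. For most of these fits DESeq2 gave Skap1 no adjusted p.

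Themis outside T cell nuclei lay in fibroblast-like nuclei, the collagen-making cells of the meninges and vessel walls. They held 669 of the 750 Themis UMIs found outside T cell-like nuclei. The level was 127 CPM (111 to 145) in WT, 125 (103 to 151) in PS19 replicate 1, 103 (83.4 to 125) in PS19 replicate 2 and 289 (253 to 329) in TG_PS19. The TG_PS19 interval lay above the other 3, which overlapped. These intervals treat each UMI as independent, although 1 nucleus can hold several. Microglia-like nuclei held Themis in 0 of 1525, which allows up to 0.197%, while fibroblast-like nuclei held it in 14.2% at a median depth of 2196 UMIs and, thinned to 1000 UMIs, in 9.44%. Within the class, cluster 5 carried the signal in every library. Cluster 16, led by Slc47a1 and Bnc2, held 2 Themis UMIs in 305 nuclei. In cluster 5, TG_PS19 had 233 Themis UMIs in 66 nuclei, WT 227 in 108, and PS19 109 in 46 and 98 in 39. The share of cluster 5 nuclei with Themis was 21.5% (17.03 to 26.5) in TG_PS19 and 15.8% (13.1 to 18.7) in WT. It was 15.9% (11.9 to 20.7) in PS19 replicate 1 and 15.5% (11.2 to 20.5) in PS19 replicate 2. The intervals of these shares all overlapped.

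In the fit across all genes of fibroblast-like nuclei, Themis was higher in TG_PS19 than in PS19 by a log2 fold change of 1.39 (SE 0.19, edgeR quasi-likelihood adjusted p 7.40e-10), on 233 UMIs in TG_PS19 against 110 and 98. Of 11877 genes tested there, 2.01% were called. As a member, Themis was chosen with earlier results of these libraries known, so its adjusted p values are a description. Against WT Themis gave 1.25 (SE 0.21, edgeR adjusted p 2.23e-06; 2.16% called), and between PS19 and WT it was −0.15 (SE 0.20, edgeR adjusted p 0.874; 2.54% called). DESeq2 gave like fold changes, 1.38 and 1.24, but called neither, with adjusted p of 0.131 and 1. Sex moved with this result: in TG_PS19 fibroblast-like nuclei with Xist and no Y-linked UMI, Themis was at 357 CPM (307 to 412), and in those with a Y-linked UMI and no Xist at 149 CPM (96.7 to 221). Nuclei with a Y-linked UMI and no Xist gave 117 CPM (99.9 to 137) in WT and 135 (110 to 166) and 101 (80.3 to 126) in PS19, intervals that overlap that of TG_PS19. Within TG_PS19, 21.2% (15.99 to 27.1) of the nuclei with Xist and no Y-linked UMI held Themis. Of those with a Y-linked UMI and no Xist, 17.1% (9.18 to 28.03) did, an overlapping interval. What sex adds to the difference between libraries was not tested.

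Cd247 was low and spread over many classes. In dentate granule neuron-like nuclei it was at 8.09 CPM (6.51 to 9.93) in WT, 4.37 (2.63 to 6.83) in PS19 replicate 1, 5.01 (3.38 to 7.16) in PS19 replicate 2 and 9.24 (7.28 to 11.6) in TG_PS19. In oligodendrocyte-like nuclei it was at 3.41, 0.823, 0.815 and 4.17 CPM in the same order, on 23, 4, 5 and 28 UMIs. Both classes thus had lower values in the 2 PS19 libraries than in the other 2.

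Cd247 was higher in TG_PS19 than in PS19 by a log2 fold change of 1.06 (SE 0.30, edgeR adjusted p 0.00852) in dentate granule neuron-like nuclei, where 9.5% of genes were called. PS19 against WT gave −0.75 there (SE 0.29, edgeR adjusted p 0.179), which was not called. In oligodendrocyte-like nuclei the difference was 2.38 (SE 0.58, edgeR adjusted p 0.00500), and PS19 was lower than WT by a log2 fold change of −2.0 (SE 0.60, edgeR adjusted p 0.0338), where 7.79% and 6.11% of genes were called. In astrocyte-like nuclei TG_PS19 against PS19 gave 1.11 (SE 0.39, edgeR adjusted p 0.0529; 9.11% called). DESeq2 gave no adjusted p for the calls in dentate granule and oligodendrocyte-like nuclei. Being a member, Cd247 was likewise chosen with earlier results known, and its adjusted p values are a description. Within TG_PS19, dentate granule neuron-like nuclei with Xist and no Y-linked UMI had 9.64 CPM (7.26 to 12.5) and those with a Y-linked UMI and no Xist 8.91 CPM (5.19 to 14.3). WT and TG_PS19 were also the 2 libraries with more nuclei and lower median depth; what this adds was not tested. These fits were added after the data were seen, and edgeR called 1, 3 and 1 of 10 pairs of a member and a class in PS19 against WT, TG_PS19 against PS19 and TG_PS19 against WT of the 7 classes in which a member passed the filter, where DESeq2 called 0 in each. Most of these pairs had no adjusted p from DESeq2. Over all genes of those classes, and in the same order of comparisons, edgeR called 0.337%, 2.44% and 1.37% in CA1, 5.79%, 9.11% and 2.14% in astrocyte, 3.22%, 9.5% and 6.09% in dentate granule, 2.54%, 2.01% and 2.16% in fibroblast, 0.783%, 1.98% and 2.15% in inhibitory, 0.254%, 1.96% and 0.713% in oligodendrocyte precursor and 6.11%, 7.79% and 2.75% in oligodendrocyte-like nuclei. The comparisons share the PS19 or WT libraries. They have 1 residual degree of freedom, and the lone WT and TG_PS19 libraries were assumed to vary as the PS19 pair did.

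**Figure D5:**
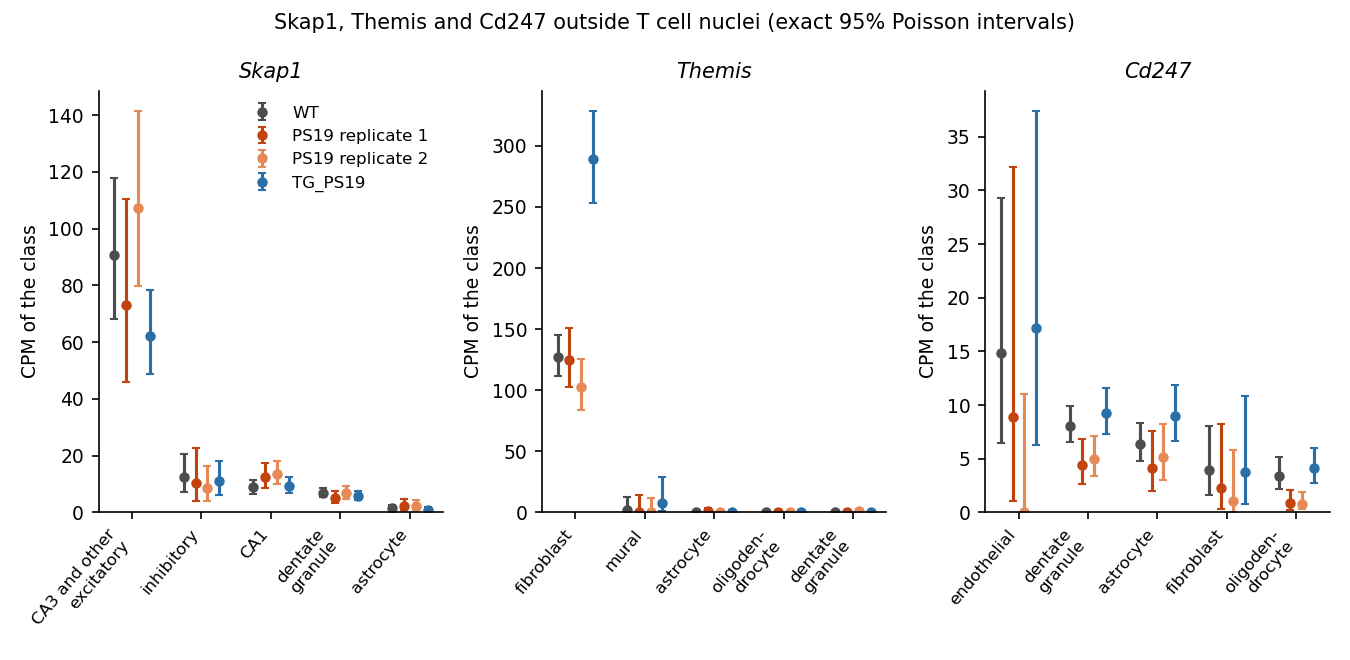
The vertical axes give the CPM of Skap1, Themis and Cd247 in 5 classes each, without the 32 chosen nuclei; points are libraries and bars exact 95% Poisson intervals. The TG_PS19 point of Themis in fibroblast-like nuclei, at 289 CPM, stands above the other 3 libraries, and the PS19 points of Cd247 in dentate granule and oligodendrocyte-like nuclei sit below WT and TG_PS19.

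The other listed T cell genes were also fitted over whole libraries, in the comparison that the members were chosen in, and the counts are given as a description. Between PS19 and WT, 71 of 91 listed genes passed the filter on low counts, and 17 were called higher and 4 lower by edgeR, which called 11.1% of 25096 genes, 5.49% higher and 5.65% lower. Their median log2 fold change was 0.33, beside 0.00127 over all genes tested. Between TG_PS19 and PS19, 4 were called higher and 20 lower, with a median of −0.45 (18.1% of all genes called, 10.5% higher and 7.61% lower; median of all −0.01). Between TG_PS19 and WT, 3 were higher and 3 lower (11.3% of all genes called, 6.71% higher and 4.63% lower; median 0.03, beside −0.00348 over all genes). DESeq2 called 4, 5 and 0 of the 38, 30 and 27 listed genes to which it gave an adjusted p, and 497, 904 and 263 of 37706 genes in all. In the last comparison edgeR gave 14 of 71 at an unadjusted p under 0.05, and DESeq2 2 of 27.

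Fewer listed genes were tested, and no more were called, when T cell nuclei were left out. The 21, 24 and 6 calls became 17, 17 and 6 without the 32 nuclei, and 14, 16 and 6 without the other T cell-like nuclei as well. The listed genes that passed the filter fell from 71 to 65 and 61 at the same time. Over all genes, 2631, 4376 and 2704 of 25073 were called in the first case and 2674, 4434 and 2760 of 25058 in the second. Ptprc had 81.6% of its UMIs in microglia-like nuclei, and PS19 against WT gave a log2 fold change of 1.19 (SE 0.13, edgeR adjusted p 8.35e-17) with the T cell-like nuclei and 1.08 without any of them. Fyb, an adaptor with 84.1% of its UMIs in microglia-like nuclei, Ikzf1 with 92.1% and the chemokine Ccl4 with 88.4% gave 1.07, 0.58 and 3.32 with these nuclei and 1.04, 0.53 and 3.32 without. Vav1, Ccl3, Pdcd1 and Lag3 were also called higher in PS19 than in WT. Microglia-like nuclei held 91.2%, 79.8%, 73.3% and 71.5% of their UMIs. Prkcq, called higher too, had 6261 of its 6436 UMIs outside T cell-like and microglia-like nuclei.

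Genes with many of their UMIs in T cell-like nuclei moved more. This follows from leaving out the nuclei that hold those UMIs and is a description. Grap2, with 49.7% of its UMIs in T cell-like nuclei, rose in PS19 against WT by a log2 fold change of 1.20 (SE 0.35, edgeR adjusted p 0.00795) and gave 0.25 without the 32 nuclei (edgeR adjusted p 0.822). Trbc2, with 72.2%, had 2, 11, 15 and 8 UMIs and a log2 fold change of 3.51 (SE 0.95, edgeR adjusted p 0.00380), and too few UMIs to be tested without them. Klrk1 was lower in TG_PS19 than in PS19 by −1.95 (SE 0.45, edgeR adjusted p 0.000261) and gave 0.14 once all T cell-like nuclei were left out. Without PS19 replicate 1, on log2 CPM with a larger prior count than in the fit, it was −1.08.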

How the data were processed

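Single-nucleus libraries (10x 3′ v3.1) were mapped and counted by the authors with Cell Ranger 7.1.0 on GRCm38, per the submitters' processing notes, and the deposited values are raw UMI counts per gene and nucleus. Members, lists and marker genes were chosen with earlier results of these data known. Nuclei needed 500 UMIs, 300 genes and at most 5% mitochondrial UMIs; doublets, scored against simulated ones, took 10.2%, 3.70%, 3.94% and 7.78% of barcodes in WT, PS19 replicate 1, PS19 replicate 2 and TG_PS19. Clusters (scanpy 1.11.5, leidenalg 0.10.2; 2000 variable genes, 30 components, 15 neighbours) gave 26 groups, named from marker lists. Gene positions are those of GENCODE M21.

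Levels are CPM of kept nuclei with exact Poisson intervals, and shares have exact Clopper-Pearson intervals; both cover counting error only. A count of 0 was read as allowing up to 3 counts. Sums per library, or per library and class, were fitted with edgeR 4.0.16 (quasi-likelihood, TMM, Benjamini-Hochberg over all genes, threshold 0.05), and DESeq2 1.42.0 was an alternative, as were other scalings, filters and thinning. Scripts were tested on simulated data. Named genes were the members, the 20 other genes with the largest ratio of CPM plus 10 in PS19 among genes in at least 25% of the chosen nuclei of each PS19 library, the 10 closest to the members' mean profile by Pearson's r among genes with at least 20 UMIs, and listed genes. One listed gene is not reported here.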

Additional observations from a re-analysis of the deposited data

How the results depend on the processing

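Both PS19 libraries stayed above WT and TG_PS19 in the share of nuclei with 3 or more members under the settings given here. With 2 or more members the shares were 0.140%, 0.425%, 0.550% and 0.112% in WT, PS19 replicate 1, PS19 replicate 2 and TG_PS19, with a PS19 mean of 0.488%. The PS19 mean was 0.162% with 4 or more members, 0.349% for the T cell-like cluster and 0.298% with all nuclei over 5000 UMIs left out. Thinned to 1000 UMIs, WT was 0.0179% and the PS19 mean 0.196%, and thinned to 600 UMIs the PS19 mean was 0.130%. Without one PS19 replicate the mean ranged from 0.224% to 0.275%. Nuclei with 3 or more other T cell genes numbered 13 in WT with doublets kept; 2 in WT and 11 in PS19 replicate 2 at 1000 UMIs; 2, 10 and 8 in WT and the PS19 replicates at 600 UMIs; and 18, 29 and 15 in WT, PS19 replicate 2 and TG_PS19 with 2 or more such genes. The summed CPM of the members had a PS19 mean of 23.3 with doublets kept and 23.3 over all deposited barcodes, ranged from 23.6 to 24.0 without one PS19 replicate, and without the 32 nuclei was 18.3 in WT and 17.5 and 16.03 in PS19, a mean of 16.7. DESeq2 called 4, 5 and 0 of the 38, 30 and 27 other T cell genes with an adjusted p (497, 904 and 263 of all 37706), against 21, 24 and 6 of 71 by edgeR; the cause was not tested. Without one PS19 replicate a fit has no residual degrees of freedom, and 0 of the fold changes of called listed genes reversed. Without replicate 1, Klrk1 went from 1.48 to 0.65 (PS19 against WT) and from −1.95 to −1.08 (TG_PS19 against PS19), and Trbc1 from −2.64 to −1.32 in the latter. These values are differences of log2 CPM with a larger prior count than in the fit, which pulls them toward 0 too: Eomes in TG_PS19 against WT, which uses no PS19 library, went from 4.4 to 2.94 and 2.89. The settings at 600 UMIs, for the cluster and over 5000 UMIs were added after the data were seen. No paired analysis was possible because only the PS19 libraries carry replicate numbers. Depth limits the counts: 4 of 6 WT nuclei were under 1000 UMIs.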
